A study of Mus musculus with 12 samples.

Results

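Levels of 6 genes of the neuronal and neural progenitor cytoskeleton and cell surface were compared across the series: Ina, Tubb3, Nes, Map2, Ncam1 and Islr2. Each was found by its symbol as 1 entry of the deposited table of RefSeq transcript levels, so the set holds 6 of the 19708 entries analysed. The set was chosen by symbol with earlier results of these libraries known. The measured values behind that choice were level differences between Mettl3 knockout (KO) and wild-type (WT) stem cells, where Ina and Islr2 had stood among the largest. That contrast is therefore given for all 6 genes as a description, with no test.

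Embryoid bodies (EBs), which are aggregates of cells that differentiate in serum medium without the factors that hold stem cells undifferentiated, came from Mettl3 KO or WT cells. Embryonic stem cells (ESCs) of the same 2 genotypes were kept serum-free with LIF and the inhibitor pair 2i (CHIR99021 and PD0325901). All cells were mouse cells of strain C57BL/6, and all received actinomycin, which stops transcription, with collection at 0, 4 and 8 h. The 12 groups were therefore KO EBs, WT EBs, KO ESCs and WT ESCs at 3 times each, with 1 library in each group and none repeated. The labels name neither the KO lines nor the day of the EB cultures, and nothing says whether the 3 times of a condition share a culture. P-values below measure the scatter of these libraries around a line over time in each condition, which may be technical.

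Intermediate filaments and microtubules give neural cells their shape. Nes encodes nestin, the filament protein of neural progenitors, and Ina encodes α-internexin, a filament subunit of developing neurons. Tubb3 encodes the β-tubulin isotype by which young neurons are recognised, and Map2 encodes a microtubule-associated protein of dendrites. Ncam1 and Islr2 encode surface proteins and not parts of the cytoskeleton: neural cell adhesion molecule 1, and a leucine-rich repeat transmembrane protein that takes part in axon growth and guidance. Mettl3 encodes the catalytic subunit of the enzyme complex that writes N6-methyladenosine on mRNA, a mark known to affect how long transcripts last.

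The 6 genes lie on 5 chromosomes of GRCm38. Ina (NM_146100) lies at chr19:47014681-47025327 on the plus strand, and its 5′ end overlaps Nt5c2 on the opposite strand. Tubb3 (NM_023279) lies at chr8:123411553-123422015 on the plus strand within Gm20388, a gene of the same strand, so reads of the pair could not be told apart with certainty. Nes (NM_016701) lies at chr3:87971093-87980451 on the plus strand and overlaps no other annotated gene. Map2 (NM_001039934) lies at chr1:66175202-66442583 on the plus strand and overlaps the antisense gene Gm10558. Ncam1 (NM_001081445) lies at chr9:49502129-49799393 on the minus strand and overlaps the antisense gene Gm11149. Islr2 (NM_001161535) lies at chr9:58196297-58204319 on the minus strand, and overlaps 1600029O15Rik on the opposite strand. In GENCODE's gene models it also overlaps its relative Islr on the same strand, whereas RefSeq's Islr ends at 58159236, below Islr2.

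Promoters of Ina, Islr2 and Tubb3 are shown because Ina and Islr2 differed most between genotypes in ESCs, in opposite directions, and Tubb3 had the most reads. The sequences are RefSeq's on GRCm38.p6, from 250 bases before the transcript start to 50 after it, 5′ to 3′ on the gene's strand. Capitals mark GGGCGG, the GC box, on either strand (written CCGCCC where it lies on the other strand). The Ina window is chr19:47014431-47014730, the Islr2 window chr9:58204270-58204569 (the first of 3 listed starts) and the Tubb3 window chr8:123411303-123411602.
Ina: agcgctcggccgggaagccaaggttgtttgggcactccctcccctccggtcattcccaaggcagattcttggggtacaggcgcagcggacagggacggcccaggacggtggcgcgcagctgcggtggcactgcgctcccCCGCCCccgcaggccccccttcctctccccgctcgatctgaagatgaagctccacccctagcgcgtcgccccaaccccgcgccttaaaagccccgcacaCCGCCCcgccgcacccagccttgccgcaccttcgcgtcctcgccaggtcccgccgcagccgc
Islr2: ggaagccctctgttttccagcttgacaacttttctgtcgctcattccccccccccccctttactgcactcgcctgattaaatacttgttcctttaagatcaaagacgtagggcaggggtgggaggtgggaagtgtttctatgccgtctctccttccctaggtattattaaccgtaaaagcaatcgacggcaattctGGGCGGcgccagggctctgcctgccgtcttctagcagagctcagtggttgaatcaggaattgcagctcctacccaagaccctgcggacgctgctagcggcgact
Tubb3: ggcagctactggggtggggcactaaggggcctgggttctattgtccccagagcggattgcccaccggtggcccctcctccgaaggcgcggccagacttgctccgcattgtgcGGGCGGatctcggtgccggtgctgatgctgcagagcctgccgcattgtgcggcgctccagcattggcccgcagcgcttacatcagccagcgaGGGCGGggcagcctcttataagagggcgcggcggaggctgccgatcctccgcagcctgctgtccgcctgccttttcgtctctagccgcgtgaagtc

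Promoters of 5 of the 6 genes were found in the table, Ncam1 being the exception. The Ina window held 32 CpG dinucleotides and 71.7% G and C, the Tubb3 window 26 CpG and 67.3%, and the first Islr2 window 14 CpG and 54.0%, while the Map2 window held 37 CpG and the Nes window 18. The median of 32851 promoters of the same length was 7 CpG. GGGCGG stood in the window of all 5 genes and in 35.7% of all promoters. The letters TCAGCACC and GGACAG are the core parts of the RE1 element known to bind the repressor Rest. TCAGCACC stood in the Tubb3 window and in 1.65% of all promoters, and GGACAG in the Map2, Tubb3 and Ina windows and in 22.2% of all. The E-box CAGCTG stood in the Ina window and in 16.3% of all promoters, and TATAAA in none of the 5 and in 13.6% of all. Both strands were searched, and a match describes these letters only.

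Read support set what could be seen. A level is the authors' normalised value per transcript in the file's own units. Read equivalents, inferred from the step size of the values, numbered 208874 in the shallowest library (WT EBs at 8 h) and 666805 in the deepest (KO EBs at 0 h), and column totals of the levels differed 3.02-fold. Genes of families that are silent in most tissues (1426 entries, among them olfactory and vomeronasal receptors) served as a background. Their 95th percentile lay between 44.6 and 71.4 in EBs and between 18.8 and 30.7 in ESCs, and 26.7 to 36.2% of them had a level above 0 in EBs, against 6.80 to 9.61% in ESCs. Mettl3 itself had levels of 16.8, 40.7 and 83.9 in KO EBs at 0, 4 and 8 h, against 175, 86.0 and 77.4 in WT EBs. In KO ESCs Mettl3 stood at 98.1, 65.4 and 41.8, against 251, 64.8 and 113 in WT ESCs. The position of the deletion is not given in the labels and reads of the 3′ end may fall outside it, so these values do not check the genotype. Of the 12 genes of the naive and core pluripotency list, all 12 were above 0 in every library. Endoderm markers (14 genes) summed to between 1679 and 2197 in KO EBs, compared with 18856 to 25284 in WT EBs. Whether the makeup of the EBs bears on the values below was not tested. In such bulk samples, fewer cells of a type and less RNA per cell cannot be told apart.

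The 6 genes had 72 values in all, of which 61 lay above the silent-family 95th percentile of their library (30 of 36 in EBs and 31 of 36 in ESCs). Tubb3, Map2 and Ncam1 passed it in 12 of 12 libraries, Ina in 9, and Nes and Islr2 in 8 each. All 6 passed the filter on low levels, which kept 12704 entries. Tubb3 rested on 5.46 to 52.9 read equivalents per library and Islr2 on 0 to 38.8. The others had few reads throughout: 0 to 15.4 for Ina, 2.50 to 13.9 for Ncam1, 1.72 to 8.00 for Map2 and 2.00 to 6.46 for Nes.

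**Figure D1:**
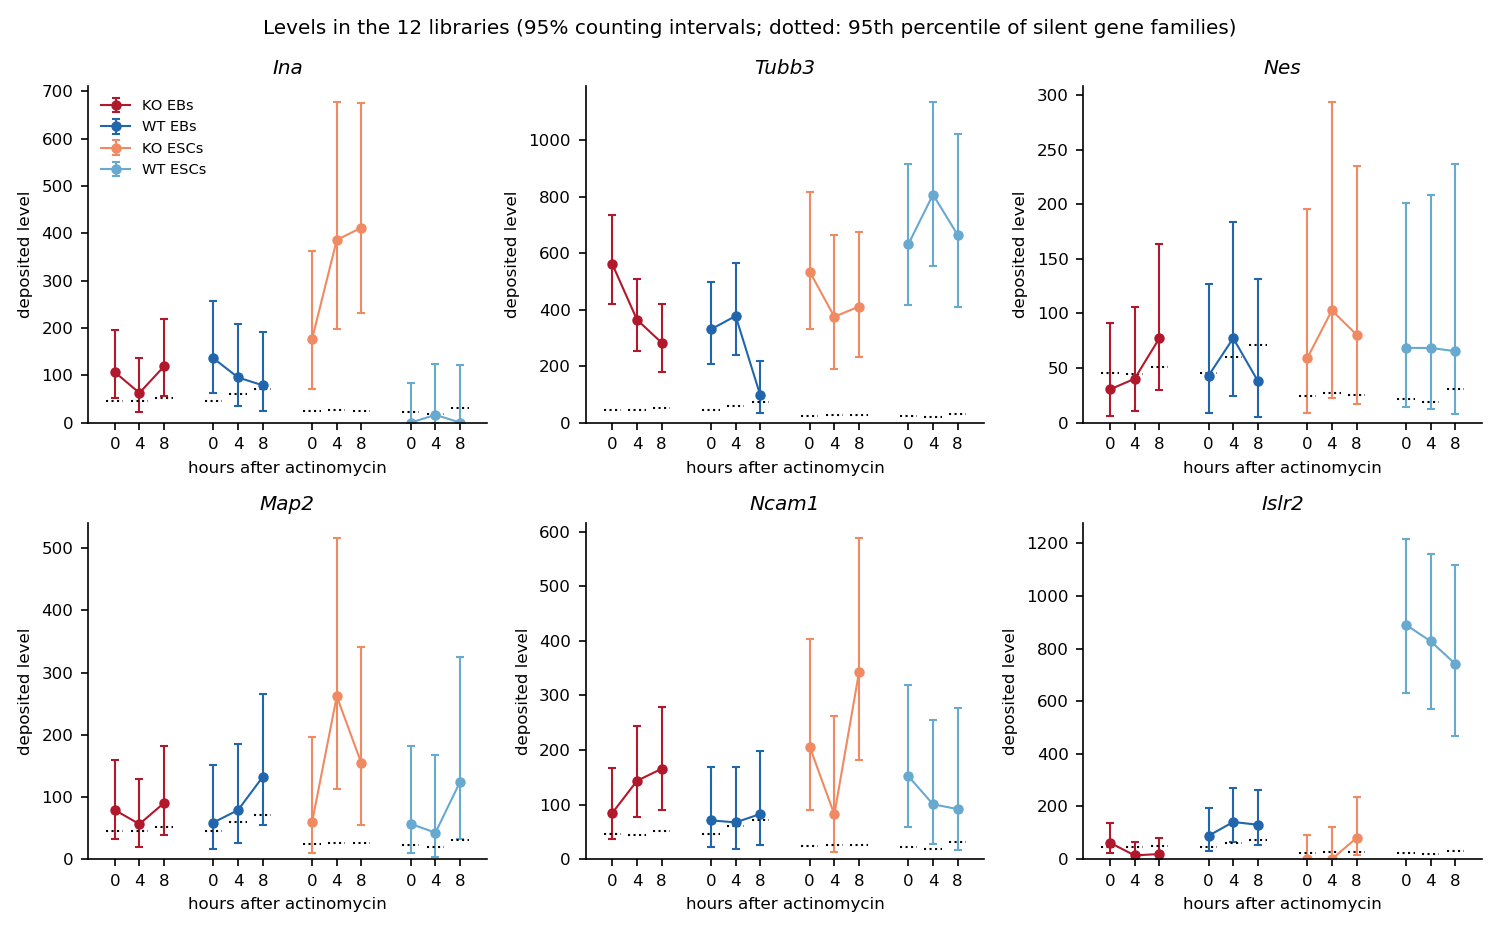
Deposited level (y axes, file units) of each gene in KO EBs, WT EBs, KO ESCs and WT ESCs at 0, 4 and 8 h after actinomycin (x axes). Points are single libraries, bars 95% counting intervals on inferred read equivalents, and dotted lines the 95th percentile of silent gene families. Ina stood at 177 to 412 in KO ESCs against 0 to 16.3 in WT ESCs, and Islr2 at 0 to 80.5 in KO ESCs against 742 to 890.3 in WT ESCs.

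In ESCs, the neuronal filament gene Ina was read in KO cells and next to absent in WT cells, and Islr2 showed the opposite. Ina had levels of 177, 386 and 412 in KO ESCs at 0, 4 and 8 h, against 0, 16.3 and 0 in WT ESCs. All 3 KO ESC libraries were above all 3 WT ESC libraries, and the KO values rested on 7.02, 11.8 and 15.4 reads, against 0.66 of a read in WT ESCs altogether. A listed 0 allowed levels of up to 84.7 at 0 h and 121 at 8 h in WT ESCs, and the upper limit at 4 h was 123 (upper 95% counting limits). These limits lay below the 3 KO ESC values. The interval of the KO ESC value at 0 h, 71.1 to 363, still overlapped that of WT ESCs at 0 h. With the 3 times pooled by reads, the KO level was 55.1 times the WT level, with a 95% counting interval whose lower end was 6.87 and whose upper end was set by the single fractional read. The fitted difference, KO minus WT as the mean over the 3 times, was 4.68 ± 0.56 on the log2 scale (limma estimate ± SE, here and below). Each level had 8.58 added before the log, and the difference depended on that constant. It was 2.87 with a constant 5 times larger and 6.35 with one 5 times smaller. Without the WT ESC library of either 0 or 8 h it was 3.65, the WT level then being that of the 4 h library alone.

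Islr2 had levels of 0, 0 and 80.5 in KO ESCs, against 890.3, 828 and 742 in WT ESCs. The KO libraries held 3.00 reads in all, each of them at 8 h, and the WT libraries 94.9 reads. The pooled KO level was 0.0336 of the WT level (95% counting interval 0.00682 to 0.101), and the fitted difference was -5.46 ± 0.56. It was -3.82 and -7.04 with the larger and the smaller constant. Every KO ESC library was below every WT ESC library, and the value in KO ESCs at 8 h, 80.5 with an interval of 16.6 to 235, was above the silent-family 95th percentile of 25.2 in that library. That percentile was below the value of 1 read there, 26.8.

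The remaining genes differed less between genotypes in ESCs. Tubb3 had levels of 535, 375 and 411 in KO ESCs, against 632, 808 and 665 in WT ESCs, the 3 KO values lying below the 3 WT values. Its pooled KO level was 0.636 of the WT level (0.435 to 0.920), with a fitted difference of -0.67 ± 0.34. Map2 had levels of 59.3, 262 and 154 in KO ESCs, against 56.5, 42.6 and 124 in WT ESCs. The Map2 ranges overlapped, and its fitted difference was 0.92 ± 0.53, between 0.46 and 1.83 when 1 library was left out. Ncam1 had levels of 206, 81.8 and 342 in KO ESCs, against 152, 100.5 and 91.6 in WT ESCs, with overlapping ranges and a fitted difference of 0.65 ± 0.48. Its direction rested on single libraries. Without the KO ESC library of either 0 or 8 h, the KO level is that of the 4 h library alone, and the difference was -0.42. It was 1.19 without the 4 h library. Nes had levels of 58.8, 103 and 80.5 in KO ESCs, against 68.4, 68.3 and 65.4 in WT ESCs, and its fitted difference was 0.20 ± 0.54 on 2.00 to 3.14 reads per library. Over all 12704 genes tested, 14.1% were called in this contrast (adjusted p below 0.05; 10.9% higher and 3.27% lower in KO ESCs) and the median difference was 0.18. The calls split into 1381 higher and 416 lower as deposited and into 1046 and 670 with median-ratio scaling. Since the contrast chose the genes, nothing is read from their share beside it.

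Neighbouring genes gave the local context of the pair. Nt5c2, which overlaps the 5′ end of Ina, had a KO minus WT difference in ESCs of -0.16 ± 0.30 (limma adjusted p = 0.787). On the other side, Pcgf6 stood at -0.11 ± 0.42 (adjusted p = 0.900) and Taf5, a subunit gene of the general transcription factor TFIID, rose by 1.55 ± 0.44 (adjusted p = 0.0293). Taf5 had levels of 282, 204 and 367 in KO ESCs, against 269.5, 74.7 and 31.4 in WT ESCs, so the libraries of 4 and 8 h carried that difference. Cnnm2, before Nt5c2, had a difference of 1.17 ± 0.48 (adjusted p = 0.127). Around Islr2, the nearest tested gene Pml stood at 0.10 ± 0.40 (adjusted p = 0.906), and Stra6, Islr and 1600029O15Rik were too low to test. Islr was listed at 0 in 10 libraries, at 67.6 in WT EBs at 4 h and at 24.7 in WT ESCs at 4 h.

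In EBs, none of the 6 genes passed the test between genotypes. Ina had levels of 107, 62.7 and 119 in KO EBs, compared with 136, 95.3 and 78.8 in WT EBs. The ranges overlapped, the pooled KO level was 0.907 of the WT level (0.486 to 1.72), and the fitted difference was -0.11 ± 0.56 (limma adjusted p = 0.955). Islr2 had levels of 62.4, 14.1 and 19.1 in KO EBs, compared with 88.6, 141 and 131 in WT EBs. Each KO EB library was below each WT EB library, on 8.80 reads in KO EBs and 22.2 in WT EBs. The pooled KO level was 0.273 of the WT level (0.110 to 0.619), and the fitted difference of -1.84 ± 0.56 had an adjusted p of 0.0546 in limma. It passed the threshold under 8 of the alternative settings, given in the closing section, with adjusted p between 0.0105 and 0.401 over all settings run. The KO EB values of 4 and 8 h, 14.1 and 19.1, lay below the silent-family 95th percentiles of 44.6 and 51.3.

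Tubb3 had levels of 561, 364 and 283 in KO EBs, compared with 330.4, 378 and 96.0 in WT EBs. KO EBs were above WT EBs at 0 and 8 h and not at 4 h, and the pooled KO level was 1.48 times the WT level (1.06 to 2.11). The fitted difference of 0.73 ± 0.34 did not pass (limma adjusted p = 0.231). It was 0.035 without either the 0 h or the 8 h library of WT EBs, which leaves the WT level to the 4 h library alone. Ncam1 had levels of 84.5, 143 and 166 in KO EBs, compared with 70.9, 67.3 and 82.7 in WT EBs. Every Ncam1 value in KO EBs was above every value in WT EBs, but on 35.3 reads in KO EBs and 13.7 in WT EBs the pooled ratio of 1.77 had a counting interval of 0.926 to 3.59, and the fitted difference of 0.72 ± 0.48 did not pass (adjusted p = 0.474). Map2 had levels of 79.0, 56.3 and 90.4 in KO EBs, compared with 58.8, 78.9 and 132 in WT EBs, with a difference of -0.19 ± 0.53 (adjusted p = 0.910). Nes had levels of 30.4, 40.1 and 77.0 in KO EBs, compared with 43.0, 77.3 and 38.0 in WT EBs, with a difference of -0.12 ± 0.54 (adjusted p = 0.949). Both genotypes overlapped for Map2 and Nes, and 4 of the 6 Nes values lay below the silent-family 95th percentile of their library. By limma, 0 of 6 genes were called and 2 (Islr2 and Tubb3) had an unadjusted p under 0.05, while 9.22% of all tested genes were called (7.66% higher and 1.56% lower in KO EBs). The split of those calls depended on the scaling: 973 were higher and 198 lower as deposited, 632 and 359 with equal column totals, 653 and 270 with median-ratio scaling, and 395 and 591 with scaling on ribosomal protein genes. For Ina, Nes, Map2 and Ncam1, a difference between genotypes was not detectable at this depth.

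Between cell types, Ina and Islr2 again stood apart, as a description, since these contrasts use the same ESC libraries. Ina was lower in EBs than in ESCs among KO cells (EB minus ESC -1.62 ± 0.56) and higher in EBs than in ESCs among WT cells (3.16 ± 0.56). The KO value was -0.97 with equal column totals and -0.99 with median-ratio scaling. The WT value was 1.60 and 4.77 with the larger and the smaller constant. It was 2.14 without the WT ESC library of either 0 or 8 h, the WT ESC level then being that of the 4 h library alone. In order of level, Ina was highest in KO ESCs, then in WT EBs and KO EBs, which did not differ beyond their spread, and lowest in WT ESCs. Islr2 was highest in WT ESCs, then in WT EBs, and lowest in KO EBs and KO ESCs, whose ranges overlapped. The Islr2 differences were 0.92 ± 0.56 in KO cells and -2.71 ± 0.56 in WT cells, the KO value lying between 0.24 and 2.15 over the alternatives. Tubb3 differed by -0.17 ± 0.34 in KO cells and by -1.56 ± 0.34 in WT cells, and was highest in WT ESCs, with the other 3 conditions overlapping. With equal totals, median-ratio and ribosomal protein scaling, the Tubb3 difference turned to 0.51, 0.50 and 0.21 in KO cells and was -0.68, -0.90 and -0.69 in WT cells. In WT cells it was -0.87 without the WT EB library of either 0 or 8 h, which leaves the WT EB level to the 4 h library alone. Map2 stood at -0.80 in KO and 0.30 in WT, Ncam1 at -0.49 and -0.56, and Nes at -0.68 and -0.36, with SEs of 0.48 to 0.54. With equal column totals these became -0.17 and 1.13 for Map2, 0.16 and 0.28 for Ncam1, and -0.079 and 0.44 for Nes, so that the direction turned for Ncam1 in both genotypes and for Nes in WT. The median over all tested genes was -0.61 in KO cells, where 24.1% were called, and -0.50 in WT cells, where 32.6% were called. Markers of neurons (21 genes, with Tubb3, Map2 and Ina among them) summed to between 1796 and 2243 in KO EBs and between 1412 and 2217 in WT EBs. The sums were 2814 to 2991 in KO ESCs and 2665 to 3167 in WT ESCs. A few genes made up much of them: in WT ESCs at 0 h, Uchl1 stood at 1250, Tubb3 at 632 and Syn1 at 607. Of the 24 neural progenitor markers, 17 to 20 were above 0 in KO EBs and 18 to 21 in WT EBs, against 11 to 15 in KO ESCs and 12 to 13 in WT ESCs. Silent families, too, were above 0 more often in EBs (26.7 to 36.2%) than in ESCs (6.80 to 9.61%). The marker counts therefore do not show progenitor genes rising in EBs. Fabp7 was listed at 0 in all 12 libraries. As deposited, the summed neuron markers were thus no higher in EBs than in ESCs. Column totals were also lower in EBs (3673848 to 8311484) than in ESCs (10057266 to 11086748), so the sums do not compare shares of the total. Gene by gene, the 9 neuron genes tested outside the set had a median EB minus ESC difference of -0.36 in KO cells and 0.46 in WT cells. Both lay above the medians over all tested genes, -0.61 and -0.50. Of these 9 genes, 0 were called higher in EBs, and 1 was called lower in KO cells and 2 in WT cells. Tubb3, Map2, Ncam1 and Nes, although named for neural cells, were read in ESCs of both genotypes. Ina was next to absent in WT ESCs, and Islr2 was read in KO ESCs at 8 h only.

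**Figure D2:**
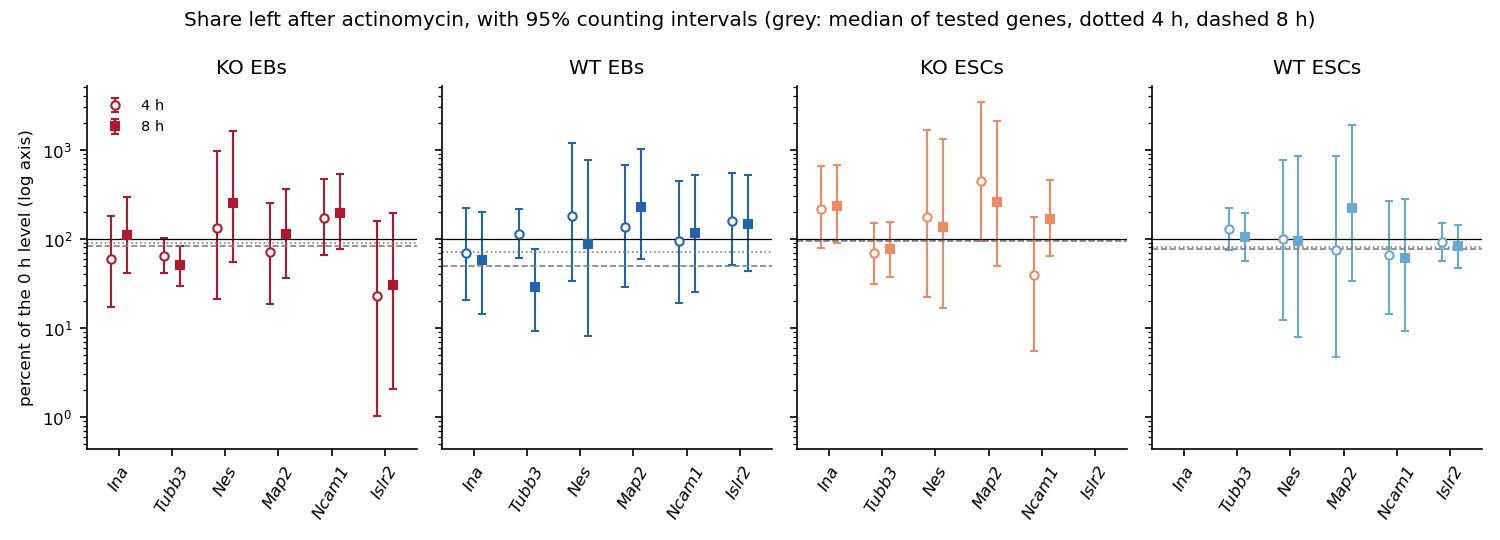
Level at 4 h (open circles) and 8 h (filled squares) as a percent of the 0 h level of the same condition (log y axis), for each gene (x axes) in KO EBs, WT EBs, KO ESCs and WT ESCs. Bars are 95% counting intervals, the black line is 100%, and grey lines are medians of all tested genes. Only Tubb3 at 8 h in both kinds of EB has an interval wholly below 100%, and Islr2 in KO ESCs and Ina in WT ESCs have no share because their 0 h level was listed at 0.

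The share of each transcript left after actinomycin could be given for 44 of 48 combinations of gene, condition and later time, and 42 of the 44 counting intervals held 100%. Tubb3 gave both exceptions. In KO EBs 64.9% of the Tubb3 level was left at 4 h (41.0 to 102) and 50.4% at 8 h (29.7 to 83.2). In WT EBs 114% was left at 4 h (61.3 to 214) and 29.1% at 8 h (9.12 to 76.1). The median tested gene had 83.0% left at 8 h in KO EBs, compared with 49.0% in WT EBs. The column total had 88.3% left in KO EBs, compared with 44.2% in WT EBs. At 4 h in WT EBs the median gene had 71.5% left and the column total 72.9%. Tubb3 in WT EBs thus lay above both at 4 h and below both at 8 h. With column totals set equal, 57.0% of Tubb3 was left at 8 h in KO EBs and 65.8% in WT EBs. In ESCs, Tubb3 had 76.8% left at 8 h in KO cells (37.1 to 155) and 105% in WT cells (56.3 to 194), where the median tested gene had 93.3% and 76.4% left in those genotypes.

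Islr2 was the other gene with enough reads to follow in 1 condition. Its level in WT ESCs was 93.0% of the 0 h level at 4 h (56.8 to 152) and 83.3% at 8 h (47.3 to 143). In EBs, 30.6% of Islr2 was left at 8 h in KO cells (2.07 to 193), against 147% in WT cells (43.5 to 523), so that no difference was detectable. Ina in KO ESCs stood at 219% at 4 h (79.1 to 657) and 233% at 8 h (90.1 to 674). Shares at 8 h for Ncam1, Map2 and Nes ran from 60.3% to 259% over the 4 conditions, each with an interval that held 100%.

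Slopes over time were tested in the same fit, as log2 level per hour. Tubb3 fell in WT EBs by 0.21 ± 0.073 per hour (limma adjusted p = 0.0418), the only slope of the 6 genes to pass in any condition. In WT EBs 26.8% of all tested genes were called, and the median slope was -0.12 per hour. The Tubb3 call rested on the WT EB library of 8 h and on the deposited scaling: its slope was 0.047 without that library and -0.073 with column totals set equal, with adjusted p of 0.930 and 0.592. The other WT EB slopes lay between -0.091 (Ina) and 0.13 (Map2). In KO EBs, 0 of 6 slopes were called (0 at an unadjusted p under 0.05) and 0% of all genes. In KO ESCs, 0 of 6 were called (1, Islr2, at an unadjusted p under 0.05) and 0.0315% of all genes, and in WT ESCs 0 of 6 (0 unadjusted) and 5.51% of all genes. Islr2 in KO ESCs (3.00 reads in all) and Ina in WT ESCs (0.66 of a read) were listed at 0 at 0 h. Their slopes there could not show decay, although the counts include them.

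Differences in slope between genotypes asked whether decay changed without Mettl3, and no gene of the 6 passed. In EBs, 0 of 6 were called by limma (0 unadjusted) beside 1.19% of all genes, with differences from -0.23 ± 0.17 per hour for Islr2 to 0.16 ± 0.17 for Nes. In ESCs, 0 of 6 were called (1, Islr2, unadjusted) beside 0.0394% of all genes. For Ina and Islr2 the ESC comparison could not show a change of decay. Ina in WT ESCs and Islr2 in KO ESCs were listed at 0 at 0 h. The Islr2 value of 0.45 ± 0.17 per hour (adjusted p = 0.370) came from its 3.00 reads in KO ESCs at 8 h. The difference between the cell types in this slope effect was called for 0 of 6 genes (1, Islr2, unadjusted) and 0% of all genes. It uses the same ESC slopes, so the limit for Ina and Islr2 holds there too. The pentamer GGACT, the commonest form of the motif that Mettl3 methylates, occurred 1.796 times per kb in the Nes transcript, 1.61 in Tubb3, 1.21 in Islr2, 0.992 in Ncam1, 0.309 in Ina and 0.201 in Map2, where the median of 19462 transcripts was 1.03. These densities describe sequence and not methylation, which was not measured here.

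Lists of related genes were set beside the 6, with counts that leave the 6 genes out. Over all tested genes, 7.66% were called higher and 1.56% lower in KO EBs, and 10.9% higher and 3.27% lower in KO ESCs. The counts of each list below stand beside these shares. Tubulin genes, which encode the α, β and γ subunits and rarer forms, were called higher in KO EBs for 7 of 14 and lower for 0, with a median of 0.85 against 0.088 over all genes. They were Tuba3a (2.67 ± 0.39, limma adjusted p = 4.26e-04), Tubb2b (1.81 ± 0.20, 3.36e-05), Tubb6 (1.76 ± 0.31, 0.00203), Tubb4b (1.48 ± 0.20, 2.06e-04), Tubb5, Tuba1c and Tuba4a. Tubb2b, a β-tubulin of the developing brain, had levels of 2124, 2629 and 3485 in KO EBs, compared with 1451, 944 and 317 in WT EBs. Tuba1a, the main α-tubulin of developing neurons, did not pass in EBs (0.069 ± 0.19, adjusted p = 0.904). With Tubb3 counted, the list held 15 tested genes and the same 7 calls, which became 7, 6 and 6 under the other scalings, with 1 lower call under the last of them, 2 without a variance trend and 2 without the 8 h libraries of both EB genotypes. In ESCs 4 of 14 were higher, Tuba4a (1.57 ± 0.21) and Tubb6 (1.51 ± 0.31) among them, and 1 was lower, Tuba1a (-1.25 ± 0.19). Tubulin genes resemble each other closely, and reads could be shared among them.

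**Figure D3:**
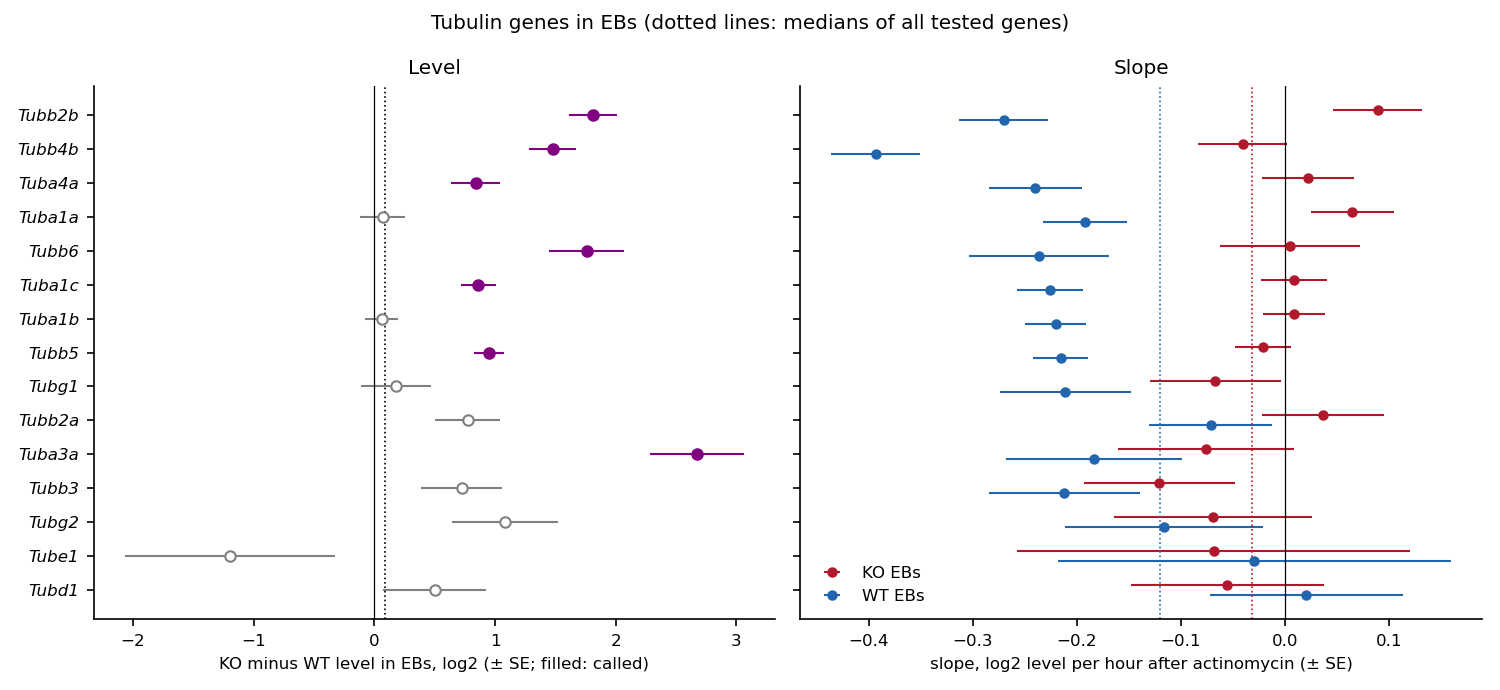
Tubulin genes in EBs: KO minus WT level (left, log2, filled where limma's adjusted p was below 0.05) and slope after actinomycin (right, log2 level per hour) in KO EBs and WT EBs, with SE bars. Dotted lines are medians of all tested genes. Tubb3 sits at 0.73 in the left panel and at -0.12 in KO EBs and -0.21 in WT EBs in the right panel.

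Tubulin slopes differed between genotypes in EBs under the deposited scaling. In WT EBs 10 of 15 tubulin genes fell, Tubb3 among them, where 26.7% of all tested genes fell (1, 1 and 2 of 15 under the other scalings, 0 without the WT EB library of 8 h), and in KO EBs 0 of 15 were called. The slope difference, KO minus WT, was higher for 6 of 15 beside 1.19% of all genes, led by Tubb2b (0.36 ± 0.060 per hour, limma adjusted p = 0.033) and Tubb4b (0.35 ± 0.060, 0.033), while Tubb3 had 0.091 ± 0.10 (adjusted p = 0.786). All 6 calls were lost with equal column totals, with each of 2 other scalings, without a trend in the variance prior and without the WT EB library of 8 h. The median tubulin slope in WT EBs was -0.21 per hour against -0.12 for all genes.

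Of 12 other intermediate filament genes tested, 0 were higher and 3 were lower in KO EBs, beside 7.66% and 1.56% over all genes. These were the lamin gene Lmna (-1.93 ± 0.32, limma adjusted p = 0.00109), the epithelial keratin gene Krt8 (-1.71 ± 0.29, 0.00153) and Vim, the vimentin gene of mesenchyme and early neural cells (-1.54 ± 0.26, 0.00125). In ESCs 3 of 12 were higher and 1 lower in KO cells, beside 10.9% and 3.27% over all genes. The higher ones were keratins of simple epithelia, Krt18 (3.84 ± 0.66, adjusted p = 0.00146), Krt8 (3.46 ± 0.29, 7.12e-06) and Krt19 (2.20 ± 0.35, 7.98e-04), and the lower one was Prph, the gene of the neuronal filament protein peripherin. Krt8 had levels of 1213, 1586 and 1770.4 in KO ESCs, against 108, 195 and 101 in WT ESCs. Of 9 tested trophoblast and epithelium markers, 6 were higher and 0 lower in KO ESCs, Tfap2c (3.73 ± 0.37) and Krt7 (4.31 ± 0.70) among them. The summed level of all 12 genes of that list, tested or not, was 12134 to 14690 in KO ESCs, against 5372 to 6908 in WT ESCs. Ina was higher in KO ESCs as well. Within KO ESCs the sum was highest at 0 h, where Ina was lowest. Cdh1 made up most of it, at 9356, 9978 and 7727 at 0, 4 and 8 h. The part of these genes in the Ina values was not tested.

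Genes of the microtubule-associated and growth cone list were higher in KO EBs for 3 of 22 tested and lower for 0, beside 7.66% higher over all genes, with a list median of -0.12 against 0.088. Map1s (1.77 ± 0.40, limma adjusted p = 0.0110) and Stmn2, a neuronal growth cone gene (0.96 ± 0.28, 0.0441), were 2 of them and Map7 was the third. These 3 calls became 2, 1 and 0 with equal column totals, median-ratio and ribosomal protein scaling. In KO ESCs 1 was higher (Map1s, 1.78 ± 0.40) and 2 were lower (Stmn3, -1.79 ± 0.44, and Map4, -1.02 ± 0.23). Among adhesion and leucine-rich repeat genes, Lrrn2 was the only call of 15 in EBs (2.00 ± 0.42, adjusted p = 0.00633). It was higher in KO ESCs too (1.73 ± 0.42), together with Lingo3 (2.89 ± 0.89, adjusted p = 0.0423), so 2 of 15 were higher and 0 lower there apart from Islr2 itself, beside 10.9% higher over all genes. Neural progenitor genes were higher in KO EBs for 2 of 10, Sox3 (2.09 ± 0.39, adjusted p = 0.00321) and Sox2 (1.71 ± 0.44, 0.0233), and for 0 without the WT EB library of 8 h. Sox2, a gene of both progenitors and pluripotent cells, was the only call of 10 in ESCs (1.65 ± 0.44, adjusted p = 0.0211). Of 9 neuron genes and 5 glia genes, 0 were called in either contrast by limma. At an unadjusted p under 0.05 there were 1 neuron gene and 1 glia gene in EBs, and 0 neuron genes and 2 glia genes in ESCs. The largest neuron difference in EBs was that of Snap25 at -1.08 ± 0.77 (limma adjusted p = 0.504). Syn1 followed in size and went the other way, at 0.80 ± 0.32 (limma adjusted p = 0.149). Gfap, the astrocyte filament gene, was listed at 0 in all 12 libraries.

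Outside the lists named for neural cells, endoderm markers were lower in KO EBs for 10 of 11 tested and higher for 0, Ttr by -6.15 ± 0.56 and Afp by -4.83 ± 0.38. Over all tested genes, 1.56% were lower and 7.66% higher in KO EBs. Fibroblast and mesenchyme markers were lower for 3 of 8 (Fn1, Vim and Thy1), and naive and core pluripotency genes were higher for 6 of 12, Nanog by 2.33 ± 0.23, and lower for 1. Trophoblast and epithelium markers in EBs had 1 of 9 higher (Tfap2c) and 1 lower (Krt8). In ESCs, fibroblast and mesenchyme markers had 1 of 8 higher and 1 lower, pluripotency genes 3 of 12 higher and 3 lower, and endoderm markers 0 of 11 called (1 at an unadjusted p under 0.05). Muscle markers were called for 0 of 3 in EBs (0 unadjusted) and for 1 of 3 in ESCs, where Myl4 was lower (-1.82 ± 0.47). The fitted Tubb3, Ncam1 and Islr2 differences in the same EB libraries did not pass the test between genotypes. The part of these marker shifts in those 3 values was not tested.

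The genes whose log2 levels over the 12 libraries followed each member most closely, by Pearson's r among 12704 tested genes, are given as a description: the libraries share their scaling and depth, and the same contrast chose some of the members. Ina was closest to Bst2 (r = 0.96), Krt7 (0.94) and Trip10 (0.92), and Islr2 to Sult6b1 (0.98), Padi3 (0.90) and Prmt8 (0.88). Krt7 was listed at 0 in WT ESCs and stood at 125, 118 and 283 in KO ESCs, much like Ina, and at 39.5, 28.6 and 44.6 in KO EBs, compared with 55.0, 88.9 and 16.5 in WT EBs. Tubb3 was closest to Lamtor5 (0.94), Gprasp2 (0.93) and Srrm1 (0.93), Ncam1 to Klhl24 (0.90), Fbxl16 (0.89) and Sp6 (0.88), Map2 to Sncaip (0.89), Bicd1 (0.86) and Zdhhc2 (0.84), and Nes to Mfap1a (0.85), Polr3g (0.84) and Ndor1 (0.81).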

How the data were processed

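Fragmented RNA was selected for its poly(A) 3′ ends and copied with the strand kept, per the labels' protocols, in 12 libraries. What the authors deposited is a single table of RefSeq transcript levels that they call normalized, treated here as a non-negative signal. Neither its scaling nor its counting is stated in the sources used here. CASAVA 1.8.2, Bowtie, Bowtie2 2.1.0 and the build mm10 appear in the submitters' processing notes. The names of all 12 columns matched sample titles.

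Of 19746 entries, a RefSeq gene table (GRCm38.p6) gave symbols to 19535 and GENCODE to 98, and 113 kept their ID. Dropping 38 identical duplicates left 19708. Values below 100 fell on whole multiples of a library's own step, within 0.1 step, in 99.8% of cases or more, and 50 steps were taken as 1 read. This is an inference. Only 13.7 to 20.1% of values were whole reads within 0.01, so a count model could not be used. Intervals are 95% exact Poisson intervals on these read equivalents, or conditional binomial ones for ratios. PCR copies were not told apart from molecules, so intervals leave out all but counting error.

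The limma package (3.58.1, R 4.3.3) was applied to log2(level + 8.58), the constant being 1 ppm of the average column total, which understates changes of low genes. A mean level of 42.9 (5 ppm) was required, which 12704 entries met. The fit had 8 coefficients, a line over hours in each condition, with 4 residual degrees of freedom and a trended prior worth 11.1. A level difference is taken at 4 h, the mean of the 3 times. Without the 0 h or the 8 h library of a condition, its level is that of the 4 h library alone. Adjusted p-values are Benjamini-Hochberg over all tested genes, with a threshold of 0.05. The code was tested on simulated data.

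The 6 genes, the 12 gene lists and the tests were chosen with earlier results of these data known. Genes named are Mettl3, the 6 genes, up to 4 genes of each list with the largest difference in EBs and in ESCs, and the 3 closest to each of the 6. Neighbouring genes, Tuba1a in EBs and other list genes given beside a small count were named after their values were seen. Camsap1 was not found in the table. Alternatives changed the pseudocount, the filter, the scaling, the variance prior, the time terms and the libraries used.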

Additional observations from a re-analysis of the deposited data

Results flagged for a closer look

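Ina differed between EBs and ESCs in opposite directions in the 2 genotypes. EB minus ESC was -1.62 on the log2 scale in KO cells, lower in EBs at each of the 3 times, and 3.16 in WT cells, higher in EBs at each of the 3 times. The KO value was -0.97 with equal column totals and -0.99 with median-ratio scaling, and the WT value lay between 1.60 and 4.77 over the alternatives. It was 2.14 without the WT ESC library of either 0 or 8 h, the WT ESC level then being that of the 4 h library alone. The difference between these 2 values was not tested, because the ESC libraries it uses chose the gene.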

How the results depend on the processing

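No paired analysis was possible because each group had 1 library and the labels carry no replicate numbers. Over the alternatives run, 848 of 974 recomputed values kept their direction and their side of the threshold, or moved by less than their error.

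Of the 6 genes, 1 (Islr2) was called between genotypes in EBs with a pseudocount of 5 ppm (-1.17, adjusted p = 0.0464), with equal column totals (-2.14, 0.0267), median-ratio scaling (-2.09, 0.0266) and ribosomal protein scaling (-2.28, 0.0247), and with the EB libraries fitted alone (-1.84, 0.0105). The count of genes called there was 1171, and 353 without a variance trend, 503 with additive time terms and 121 without both 8 h EB libraries, an alternative chosen after seeing the data. For slopes in WT EBs, 0 of 6 genes were called without a filter, under the 3 scalings, without a variance trend and without both 8 h EB libraries. The count of genes called, 3410, was 304, 282 and 248 under equal totals, median-ratio and ribosomal scaling, 977 without a variance trend and 4 without both 8 h EB libraries. The 3 scalings moved the median level difference in EBs to -0.14, -0.086 and -0.32 and the median WT EB slope to 0.018, 0.0094 and 0.026.

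Among slopes and the EB level differences, directions that turned belonged to values that had not passed, apart from the Tubb3 slope in WT EBs. EB minus ESC differences, which were not tested, turned under scaling as well: with median-ratio scaling they were 0.50 for Tubb3 and 0.15 for Ncam1 in KO, and 0.24 for Nes and 0.079 for Ncam1 in WT, and with ribosomal scaling 0.21 for Tubb3 in KO, and 0.43 for Nes and 0.27 for Ncam1 in WT. Under the 3 scalings in that order, WT EB slopes were 0.046, 0.038 and 0.054 for Ina and 0.11, 0.10 and 0.12 for Nes, and slope differences in EBs were -0.026, -0.0021 and -0.064 for Tubb3 and -0.027, -0.0029 and -0.064 for Ncam1. The Ina slope difference was -0.0068 with equal totals and -0.043 with ribosomal scaling, and that of Map2 in ESCs was -0.0082 with median-ratio scaling. Without both 8 h EB libraries, the Tubb3 level difference in EBs was that of the 4 h libraries, -0.050. WT EB slopes were then 0.047 for Tubb3, 0.18 for Nes and -0.017 for Ncam1, and slope differences were -0.055 for Ina, -0.20 for Tubb3 and -0.10 for Nes.

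Leaving out each library in turn gave 0 to 1 genes of the 6 called for the EB level and 0 to 1 for the WT EB slope, 248 to 1247 genes called for the level and 71 to 3560 for the slope. For level differences, leaving out a 0 h or 8 h library leaves its condition to the 4 h library alone. ESC level differences ran from 3.65 to 5.19 for Ina, -6.59 to -4.90 for Islr2, 0.46 to 1.83 for Map2 and -0.42 to 1.19 for Ncam1, and EB minus ESC in KO from -1.02 to 0.58 for Ncam1 and -0.27 to 0.045 for Tubb3, and in WT from -0.63 to 0.18 for Nes. EB level differences ran from -0.62 to 0.15 for Ina and from -0.65 to 0.15 for Nes. WT EB slopes ran from -0.47 to 0.047 for Tubb3, from -0.22 to 0.18 for Nes, from -0.017 to 0.067 for Ncam1 and from -0.026 to 0.16 for Islr2. Slope differences in EBs ran from -0.083 to 0.30 for Ina, -0.17 to 0.35 for Tubb3, -0.042 to 0.36 for Nes, -0.24 to 0.020 for Map2 and -0.48 to 0.0074 for Islr2. In ESCs they ran from -0.24 to 0.53 for Ina, -0.13 to 0.023 for Tubb3, -0.073 to 0.19 for Nes, -0.31 to 0.37 for Map2 and -0.23 to 0.57 for Ncam1. The Tubb3 slope call was also lost without any 1 library of KO EBs (adjusted p up to 0.0619) or of KO ESCs (up to 0.0508), and the Islr2 level in EBs was called without any 1 library of KO ESCs (adjusted p 0.0213, 0.0223 and 0.0303). The cause of these changes was not tested. Depth limits Nes, Map2 and Ncam1, at under 14 reads in every library, and the Islr2 values in KO ESCs, at 0 to 3 reads. It also limits Ina and Islr2 in EBs, at 4.48 to 10.1 and 1.32 to 8.76 reads per library.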
